A study of Mus musculus with 9 samples.

Results

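Interferon-stimulated genes are the genes that a cell switches on when it meets an interferon, and 35 of them were followed here through retinas injected with saline or with 1 of 2 peptides. The members were taken as every non-control array probe whose RefSeq accession maps to 1 of the 35 mouse symbols. Of the 35 genes, 33 had such a probe and 32 were kept after the filter on dim signals, among 23889 genes kept on the array (a gene being a symbol, or a transcript accession where no symbol matched). Mx1 and Mx2, GTPases that trap incoming viruses, had no matching probe. Oas3, an oligoadenylate synthetase, had a probe that was not well above background on any of the 9 arrays.

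The series compared retinas of adult male C57BL/6 mice on one-colour Agilent arrays, 3 arrays for each of 3 groups. The right eye of each mouse received PBS, AAP or HAN into the vitreous, and the retina was taken 7 days later. The series title presents AAP and HAN as high-affinity peptides directed at vascular endothelial growth factor (VEGF). The labels give 1 µM for all 3 injections, PBS included. Each group had 12 mice and each array measured a tube of 4 pooled retinas, so the 3 samples in a group are pools and no single mouse was measured. There was no uninjected group, and all 9 pools carry the injection itself. The p-values below come from 1 model over all 9 arrays and rest on the spread among pools within the 3 groups. The spread of the AAP pools therefore also enters the comparison of HAN with PBS.

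Interferons are secreted proteins that bind receptors on the cell surface. The receptors act through Janus kinases on transcription factors such as Stat2, which with Irf9 takes part in binding the interferon-stimulated response element (ISRE) in the promoters of target genes. Type II interferon acts mainly through another element, the gamma-activated site (GAS). The target genes restrict viruses, sense foreign nucleic acids, present antigens and attract leukocytes, and in the retina they are known to be expressed by microglia, Mueller glia and endothelium among other cells. In bulk tissue such as these pools, fewer cells of a type and less RNA per cell cannot be told apart.

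The element bound in the response to interferon can be looked for in the promoters of these genes. RefSeq promoter sequences (build GRCm38.p6, 250 bases before to 50 bases after the start) were found for 26 of the 35 members, in 30 promoters, and not for Oas2, Usp18, Iigp1, Mx1, Mx2, Parp14, Rtp4, Dhx58 and Zbp1. The letters GAAANNGAA, the core of the ISRE, were searched on both strands. They were present in 20 of the 26 members and in 70.0% of the member promoters, against 8.56% of all 32851 promoters in the table. With 1 further A at the right end the core was present in 19 members and in 66.7% of member promoters, against 3.44% of all. The core of the GAS, TTCNNNGAA, which reads the same on both strands, was present in 8 members and 26.7% of member promoters, against 8.3% of all, and it overlapped an ISRE core in Bst2 and Ifitm3. The 6 members whose promoter windows held no ISRE core were Oasl2, Ifit2, Xaf1, Ifi35, Irf7 and Irf9. A match describes letters and is not evidence that a factor binds there.

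Windows around the ISRE cores are shown for 8 members, drawn from every role described below but the sensors. The most variable member (Cxcl10) and the least variable (Stat2) are among them. The windows are printed 5′ to 3′ along the gene's strand, with the bases of the cores in capitals. They lie on build GRCm38.p6 at chr4:156200851-156200921 (minus strand, Isg15), chr19:34640755-34640838 (plus, Ifit1), chr5:120907526-120907570 (minus, Oas1a), chr12:26456538-26456596 (minus, Rsad2), chr3:142559975-142560039 (plus, Gbp3), chr8:71537563-71537627 (minus, Bst2), chr5:92349069-92349127 (minus, Cxcl10) and chr10:128270252-128270310 (plus, Stat2). The window of Isg15 holds 3 overlapping cores, which start 78 to 66 bases before the gene's start, and that of Oas1a holds 2 at 20 to 14 bases. In Cxcl10 and Stat2 the single core lies farther out, 213 and 221 bases before the start.
Isg15: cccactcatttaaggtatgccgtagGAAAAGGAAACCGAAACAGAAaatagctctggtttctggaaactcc
Ifit1: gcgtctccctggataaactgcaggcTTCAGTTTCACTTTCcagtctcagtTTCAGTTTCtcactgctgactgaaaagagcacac
Oas1a: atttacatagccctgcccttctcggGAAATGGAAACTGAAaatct
Rsad2: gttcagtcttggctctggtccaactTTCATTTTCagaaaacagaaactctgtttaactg
Gbp3: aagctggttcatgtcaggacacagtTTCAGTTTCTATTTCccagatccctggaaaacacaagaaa
Bst2: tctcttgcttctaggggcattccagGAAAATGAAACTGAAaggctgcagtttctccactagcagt
Cxcl10: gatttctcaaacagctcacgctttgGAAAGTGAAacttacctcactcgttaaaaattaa
Stat2: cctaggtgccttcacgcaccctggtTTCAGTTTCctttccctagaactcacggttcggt

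The values below are log2 processed signals minus the 75th percentile of the same array, so 0 is the level of the 75th percentile, and levels of different probes are not compared. That percentile ran from 1333.9 in AAP 3 to 2342.8 in PBS 1, and 71.6% (AAP 3) to 79.2% (PBS 1) of spots were well above background. The rod markers, Gnat1 and Nrl among them, were well above background in all 9 pools, Gnat1 between 7.27 and 7.79. Skeletal muscle markers averaged 5.55 above the PBS mean in AAP 1 and 4.27 in AAP 3, but between -0.26 and 0.29 in the other pools. Lens markers averaged -2.21 in PBS 2, -1.46 in AAP 1 and -2.06 in AAP 3, and between 0.62 and 2.17 elsewhere, with all 10 higher in HAN (median 1.09). Markers of cornea, iris and ciliary body averaged 2.06 in PBS 1 and 3.07 in AAP 1, and between -1.51 and -0.14 elsewhere. The arrays came from 3 slides: PBS 1, PBS 2, PBS 3 and AAP 1 were on the first, AAP 2, AAP 3, HAN 1 and HAN 2 on the second and HAN 3 on the third. No slide held both PBS and HAN, so slide and group cannot be told apart in that comparison.

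The interferon-stimulated genes separated the pools within every group, and 1 pool of a group often stood far from the other 2. Relative to the PBS mean, the mean over the 32 genes was -0.08, 0.47 and -0.38 in PBS 1, PBS 2 and PBS 3. It was -0.04, -0.04 and -1.20 in AAP 1, AAP 2 and AAP 3. It was -0.67, -0.85 and -0.29 in HAN 1, HAN 2 and HAN 3. PBS 2 was thus the high pool and AAP 3 the low one, while AAP 1 and AAP 2 lay inside the range of the PBS pools and HAN 1 and HAN 2 below it. The median of all genes stayed between -0.02 and 0.03 in each pool.

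**Figure D1:**
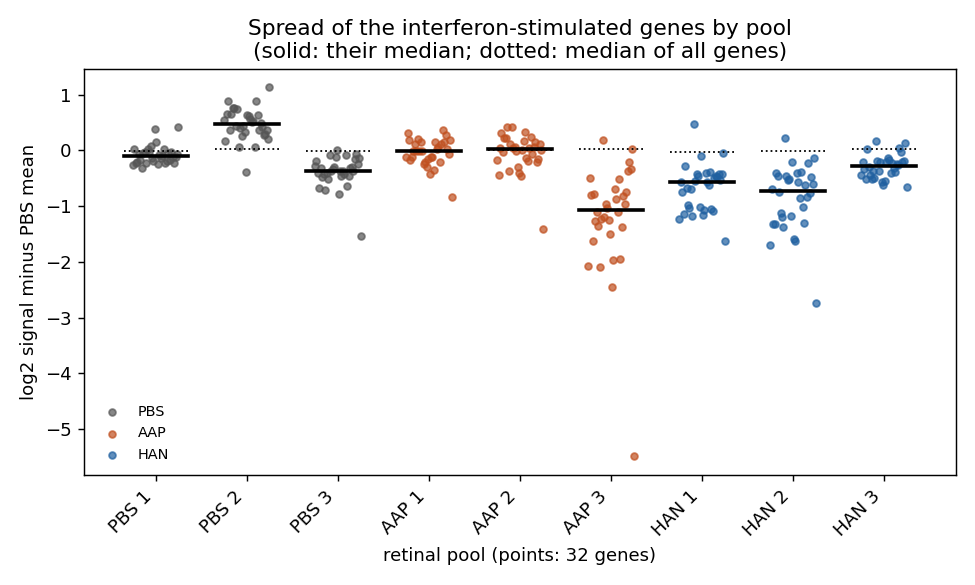
Each point is 1 of the 32 interferon-stimulated genes in 1 retinal pool, plotted as log2 signal minus the PBS mean of that gene; solid lines are medians of the 32 genes and dotted lines medians of all genes. The solid line is highest in PBS 2 (0.47) and lowest in AAP 3 (-1.08), and the isolated low point in AAP 3 is Cxcl10 (-5.49), not well above background there.

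Most members had their extremes in the same pools. The highest of the 9 values was in PBS 2 for 29 of the 32 members, against 10.9% of all genes, and the exceptions were Ifitm3 (PBS 1), Oas2 (AAP 1) and Iigp1 (HAN 1). The lowest was in AAP 3 for 24 members, against 19.7% of all genes, and in HAN 2 for 6. Within the groups, PBS 2 was the highest PBS pool for 31 members (40.8% of all genes), AAP 3 the lowest AAP pool for 30 (31.9%) and HAN 3 the highest HAN pool for 30 (46% of all genes). PBS 2 and PBS 3 lay on the same slide, as did AAP 2 and AAP 3, whereas HAN 3 was alone on its slide. AAP 3 was also the array with the lowest 75th percentile and the fewest spots above background, whose part in its low values was not tested. With normexp background correction in place of the processed signal, the highest value was in PBS 2 for 17 members, and the median in HAN 3 was 0.24 in place of -0.28. Normexp also moved the median of all genes, to 0.15 in HAN against PBS. The members' median less that of all genes was -0.44 in that comparison.

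Set against the range of the PBS pools, 1 of the 32 members was below the lowest PBS pool in AAP 1 (30.4% of all genes), 5 in AAP 2 (24.6%) and 29 in AAP 3 (31.8%). In the HAN pools the counts were 27 in HAN 1 (32.8% of all genes), 27 in HAN 2 (31%) and 7 in HAN 3 (24.7%). AAP 1 and AAP 2 therefore held fewer members below the PBS range than the share of all genes, and AAP 3, HAN 1 and HAN 2 held most of them. Iigp1 was above the PBS range in all 6 peptide pools.

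The spread inside a group was wider than that of a typical gene. The median SD over 3 pools was 0.42 for the members and 0.10 for all genes in PBS, 0.63 and 0.14 in AAP, and 0.27 and 0.10 in HAN. In PBS, 14 of the 32 members exceeded the 95th percentile of all genes' SDs, in AAP 12 and in HAN 3. PBS 2 over PBS 3, both injected with saline, gave a median ratio of 1.75, from 0.763 (Ifitm3) to 6.39 (Cxcl10). From the lowest to the highest pool the ratio had a median of 2.98 and ran from 1.26 (Stat2) to at least 43 (Cxcl10), the bound using the dimmest signal well above background on AAP 3.

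**Figure D2:**
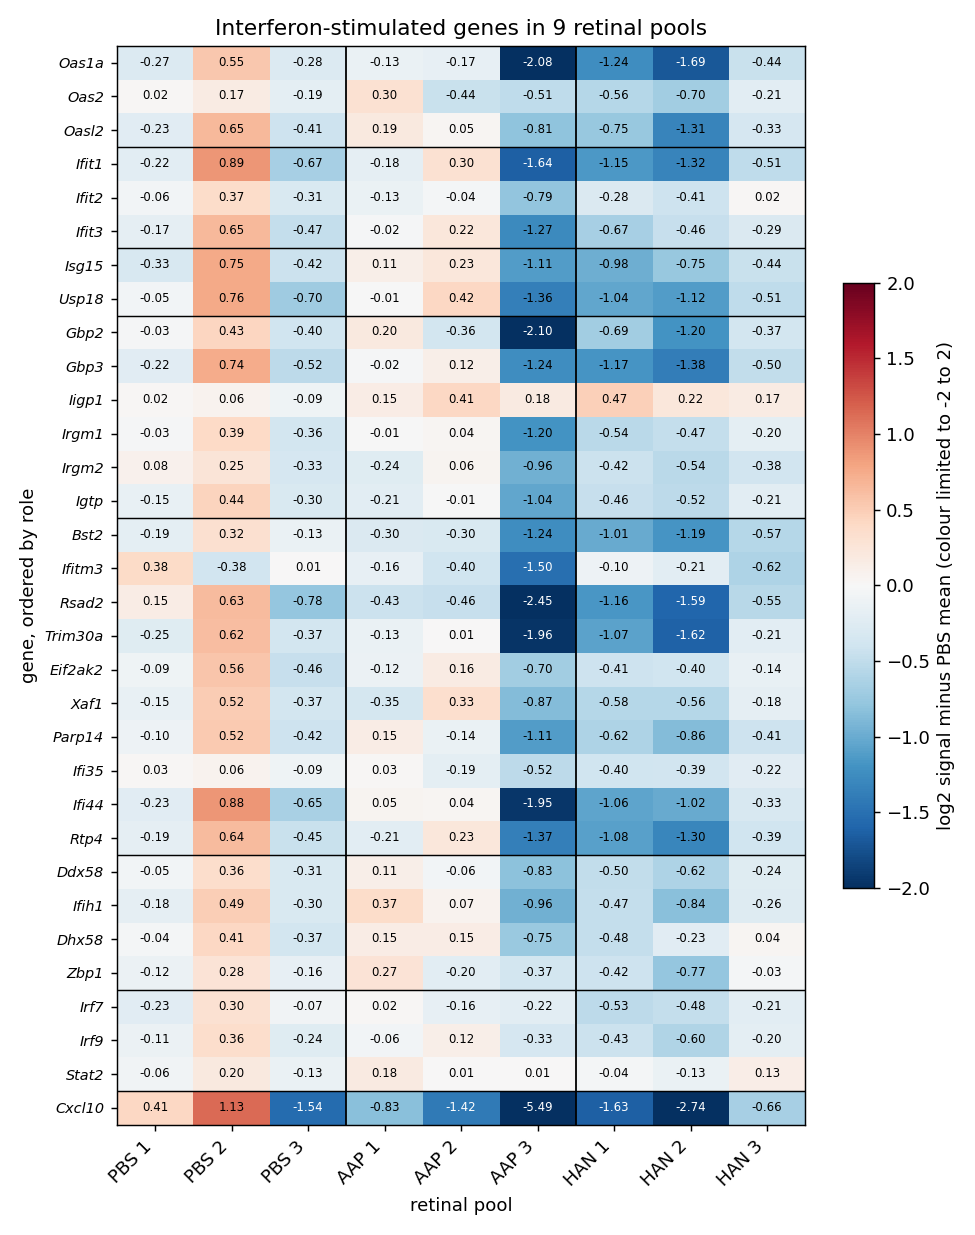
Rows are the 32 interferon-stimulated genes ordered by role, columns the 9 retinal pools, and each cell prints log2 signal minus the gene's PBS mean, with colour limited to -2 to 2. PBS 2 is red in every row but Ifitm3 (-0.38), AAP 3 is blue in every row but Iigp1 (0.18) and Stat2 (0.01), and Iigp1 is red in all 6 AAP and HAN pools.

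The oligoadenylate synthetases make the short adenylate chains that activate RNase L against viral RNA, and 3 of the 4 were measured. Oas1a stood at -1.96, -1.15 and -1.97 in PBS 1, PBS 2 and PBS 3, at -1.82, -1.86 and -3.77 in the AAP pools in the same order, and at -2.93, -3.38 and -2.13 in the HAN pools. All HAN pools were below all PBS pools, but HAN 3 was close to the lowest of them, and AAP 3 alone gave the low AAP mean. The difference from PBS was -0.79 (95% interval -2.10 to 0.52) for AAP and -1.12 (95% interval -2.43 to 0.19) for HAN, and a second Oas1a probe, dim in AAP 3, gave -0.87 and -1.16. Oas2 was at -3.47, -3.32 and -3.69 in PBS, -3.19, -3.93 and -4.00 in AAP and -4.06, -4.19 and -3.70 in HAN. Its highest value lay in AAP 1, and the HAN pools were all below PBS, HAN 3 only just. Oasl2, a synthetase with a ubiquitin-like tail, was at 0.40, 1.27 and 0.21 in PBS, 0.82, 0.68 and -0.18 in AAP and -0.13, -0.69 and 0.30 in HAN. Its groups overlapped in every comparison, and HAN 2 was its lowest pool.

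IFIT proteins bind viral RNA and block its translation, and the 3 measured members were each highest in PBS 2 and lowest in AAP 3. Ifit1 was at -1.98, -0.88 and -2.43 in PBS, -1.94, -1.46 and -3.40 in AAP and -2.91, -3.09 and -2.27 in HAN. AAP 1 and AAP 2 lay inside the range of the saline pools, and AAP 3, HAN 1 and HAN 2 lay below it. Its mean was -1.76 ± 0.80 (SD, n = 3) in PBS, -2.27 ± 1.01 in AAP and -2.76 ± 0.43 in HAN. Ifit2 ran from -3.48 (AAP 3) to -2.32 (PBS 2) and Ifit3 from -0.36 (AAP 3) to 1.56 (PBS 2), and both differed from PBS with intervals that include 0 in AAP (-0.32 and -0.36) and in HAN (-0.23 and -0.48).

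Isg15 is a ubiquitin-like protein that is attached to other proteins, and Usp18 is the protease that removes it and also dampens interferon receptor signalling. Isg15 was at 0.19, 1.27 and 0.10 in PBS, 0.63, 0.75 and -0.59 in AAP and -0.46, -0.23 and 0.08 in HAN. AAP 1 and AAP 2 were between PBS 1 and PBS 2, whereas all 3 HAN pools were below the lowest PBS pool, HAN 3 only just. Usp18 was at -1.98, -1.17 and -2.63 in PBS, -1.94, -1.50 and -3.29 in AAP and -2.96, -3.04 and -2.43 in HAN. HAN 1 and HAN 2 lay below PBS 3, and HAN 3 did not. The difference of HAN from PBS was -0.73 (95% interval -1.71 to 0.26) for Isg15 and -0.89 (95% interval -2.07 to 0.29) for Usp18, so neither interval excludes 0.

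The interferon-inducible GTPases attack the vacuoles of intracellular pathogens and gave the only member that was higher in both peptide groups. Gbp2 was at -0.81, -0.34 and -1.18 in PBS, -0.58, -1.14 and -2.87 in AAP and -1.47, -1.98 and -1.15 in HAN. Gbp3 was at -0.75, 0.21 and -1.04 in PBS, -0.55, -0.41 and -1.76 in AAP and -1.70, -1.90 and -1.03 in HAN. For both genes AAP 3 was far below the other AAP pools, and for Gbp3 HAN 1 and HAN 2 were close to AAP 3. Irgm2 and Igtp are immunity-related GTPases, which act on the same vacuoles. Irgm2 was at -1.48, -1.31 and -1.89 in PBS, -1.80, -1.50 and -2.52 in AAP and -1.98, -2.10 and -1.94 in HAN. Igtp was at -0.23, 0.36 and -0.38 in PBS, -0.29, -0.09 and -1.12 in AAP and -0.54, -0.60 and -0.29 in HAN. The HAN pools of Irgm2 were all below PBS, those of Igtp were not, and the regulator Irgm1 ran from -2.42 (AAP 3) to -0.83 (PBS 2).

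Iigp1, another of these GTPases, was at 0.17, 0.21 and 0.06 in PBS, 0.29, 0.56 and 0.33 in AAP and 0.61, 0.37 and 0.31 in HAN. All 6 peptide pools were above all 3 PBS pools. The difference was 0.25 (95% interval 0.00 to 0.49) for AAP and 0.29 (95% interval 0.04 to 0.53) for HAN, with limma adjusted p of 0.73 and 0.472. Its other probe was well above background in PBS 1 and PBS 2 alone, was not kept, and differed the other way, by -0.41 for AAP and -0.45 for HAN. The probes of Iigp1 thus disagree and give the gene no settled direction.

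Of the 10 restriction factors, all were lower in mean than PBS in both peptide groups. Bst2, or tetherin, holds budding virus at the cell surface, and was at -0.01, 0.50 and 0.05 in PBS, -0.12, -0.12 and -1.07 in AAP and -0.84, -1.01 and -0.39 in HAN. It was the only member whose AAP pools and HAN pools were all below all PBS pools. The difference was -0.61 (95% interval -1.28 to 0.05) in AAP (limma adjusted p = 0.733) and -0.92 (95% interval -1.59 to -0.26) in HAN (limma adjusted p = 0.437), the largest fold among members whose unadjusted interval excluded 0.

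Ifitm3, which blocks the fusion of viruses in endosomes, was at 0.88, 0.12 and 0.51 in PBS, 0.34, 0.10 and -0.999 in AAP and 0.40, 0.29 and -0.11 in HAN. It departed from most other members, since its lowest PBS pool was PBS 2 and its lowest HAN pool HAN 3, although AAP 3 was again the lowest of all. Rsad2, or viperin, makes a nucleotide that stops viral polymerases, and was at -2.90, -2.42 and -3.83 in PBS, -3.48, -3.50 and -5.50 in AAP and -4.21, -4.64 and -3.60 in HAN. Its mean differences of -1.11 and -1.10 came with intervals that include 0, and PBS 3 lay below AAP 1, AAP 2 and HAN 3.

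Ifi35, an interferon-induced leucine-zipper protein, was at -1.76, -1.72 and -1.88 in PBS, -1.76, -1.98 and -2.30 in AAP and -2.18, -2.17 and -2.01 in HAN. Its PBS pools were tight, and all HAN pools were below them, by -0.34 (95% interval -0.64 to -0.03) in mean with a limma adjusted p of 0.496. Trim30a, a tripartite-motif protein, was at -4.55, -3.69 and -4.68 in PBS, -4.43, -4.29 and -6.27 in AAP and -5.38, -5.93 and -4.51 in HAN. Ifi44 was at -4.83, -3.72 and -5.25 in PBS, -4.55, -4.56 and -6.55 in AAP and -5.66, -5.62 and -4.93 in HAN. The AAP 3 value of both genes was not well above background, so only AAP 1 and AAP 2 were measured there, and those lay within the PBS range. PBS 2 was at least 5.32 times AAP 3 for Trim30a and at least 5.17 times for Ifi44. Among the other factors, the kinase Eif2ak2 (PKR), which halts translation, ran from -3.52 (AAP 3) to -2.27 (PBS 2), Xaf1, which promotes apoptosis, from -1.88 (AAP 3) to -0.50 (PBS 2), the ADP-ribosyltransferase Parp14 from -1.97 (AAP 3) to -0.34 (PBS 2), and the chaperone Rtp4 from -2.27 (AAP 3) to -0.26 (PBS 2).

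The sensors of foreign nucleic acids are themselves induced by interferon. Zbp1, which detects Z-form nucleic acids and can start necroptosis, was at -3.86, -3.46 and -3.90 in PBS, -3.47, -3.94 and -4.11 in AAP and -4.16, -4.51 and -3.77 in HAN. AAP 1 and PBS 2 were level and highest, and HAN 2 was lowest. The RNA helicases Ddx58 (RIG-I), Ifih1 (MDA5) and Dhx58 (LGP2) ran from -2.65 (AAP 3) to -1.46 (PBS 2), from -3.14 (AAP 3) to -1.70 (PBS 2) and from -4.56 (AAP 3) to -3.40 (PBS 2). All 4 sensors were lower in mean in AAP, with a median of -0.16, and in HAN, with a median of -0.43.

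The transcription factors varied less than most members. Irf7, which amplifies interferon production, was at -3.34, -2.81 and -3.17 in PBS, -3.08, -3.26 and -3.32 in AAP and -3.64, -3.59 and -3.32 in HAN. HAN 1 and HAN 2 were the lowest pools and HAN 3 was just above PBS 1, and the HAN difference was -0.41 (95% interval -0.76 to -0.06) with a limma adjusted p of 0.472. Irf9, the DNA-binding partner of Stat2, was at 0.51, 0.98 and 0.37 in PBS, 0.56, 0.74 and 0.29 in AAP and 0.19, 0.02 and 0.42 in HAN. AAP 1 and AAP 2 lay inside the PBS range, AAP 3 below it, and HAN 2 was lowest. Stat2 ran from 0.81 (HAN 2, with PBS 3 level to 2 decimals) to 1.14 (PBS 2), the narrowest range of the 32, and differed from PBS by 0.07 in AAP and -0.02 in HAN.

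Cxcl10, the chemokine that draws T cells and other leukocytes bearing Cxcr3, varied most. It was at -1.40, -0.67 and -3.35 in PBS, -2.63, -3.22 and -7.29 in AAP and -3.44, -4.54 and -2.46 in HAN. PBS 3 lay below AAP 1, AAP 2 and HAN 3, and the AAP 3 value was not well above background, so 2 of the 3 AAP pools were measured. Its SD was 1.38 in PBS, 2.54 in AAP and 1.04 in HAN, the highest of the members in each group. The difference of -2.58 (95% interval -5.51 to 0.35) in AAP and of -1.68 (95% interval -4.61 to 1.25) in HAN thus both have intervals that include 0.

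The first comparison was AAP against PBS, which the series title implies as the effect of a VEGF-directed peptide on the retina. No member passed the limma test at an adjusted p under 0.05, where 0.00419% of all genes (1 of 23889) did. In mean, 30 of the 32 members were lower in AAP, with a median difference of -0.34, while the median of all genes was 0.0048; the exceptions were Iigp1 and Stat2. None was lower at an unadjusted p under 0.05 (2.63% of all genes). Bst2 was the 1 member whose AAP pools were all below all PBS pools (5.4% of all genes), and Iigp1 the 1 member whose AAP pools were all above (6.52%). The list's difference rested on AAP 3 and PBS 2. Members without overlap numbered 5 without PBS 3 (9.61% of all genes) or AAP 1 (11.5%) and 2 without PBS 2 (8.94%). Without AAP 3 the median was 0.01 and 14 members were lower, without PBS 2 it was -0.09, and without both pools, an alternative chosen after the data were seen, it was 0.21 with 5 members lower. Within the first slide, where AAP 1 alone faces the 3 PBS pools, the median was -0.02.

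**Figure D3:**
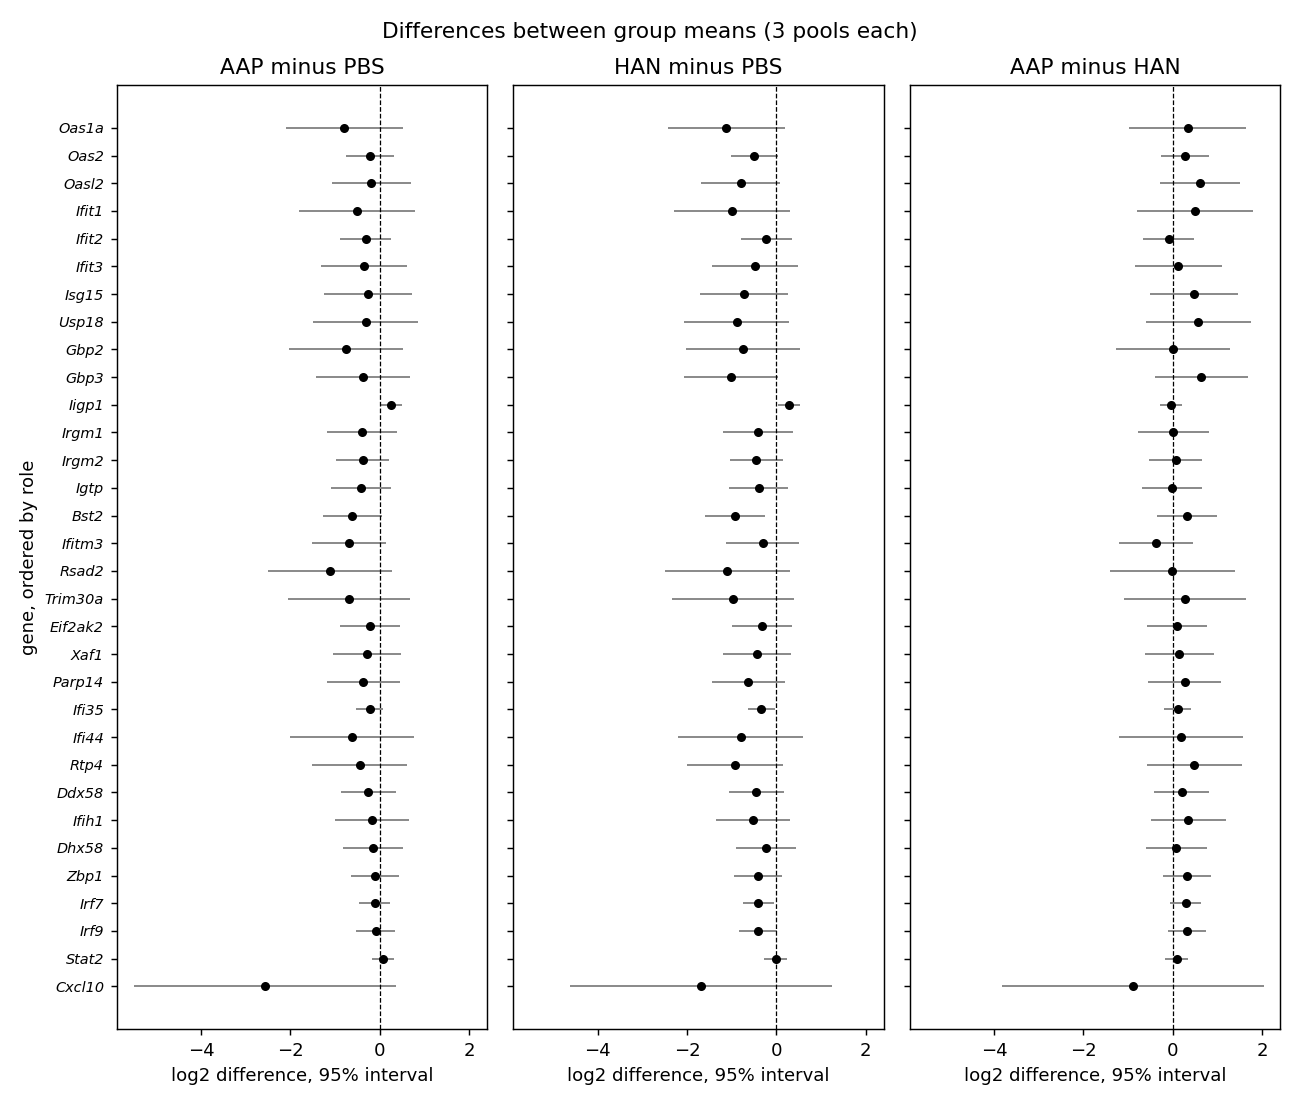
Points are differences between group means on the log2 scale for the 32 interferon-stimulated genes, with 95% intervals from the limma fit, for AAP minus PBS, HAN minus PBS and AAP minus HAN (3 pools a group). Most points lie left of 0 in the first 2 panels, with medians of -0.34 and -0.48, and few intervals exclude 0: that of Iigp1 (above 0) in the first, those of Bst2, Irf7 and Ifi35 (below 0) and Iigp1 (above 0) in the second, and none in the third.

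The second comparison, HAN against PBS, used the same 3 PBS pools, so its values are not independent of the first. Again no member passed at an adjusted p under 0.05, against 0.00419% of all genes (1 of 23889). With these 2 groups fitted alone, without the AAP pools, the lowest limma adjusted p of a member was 0.292. In mean, 31 of the 32 members were lower in HAN, with a median of -0.48 against 0.0054 for all genes, and Iigp1 was higher. At an unadjusted p under 0.05, 3 members were lower, Bst2, Irf7 and Ifi35, against 4.17% of all genes. For 6 members, Bst2, Ifi35, Oas2, Oas1a, Irgm2 and Isg15, all HAN pools were below all PBS pools, against 10.4% of all genes, and for Iigp1 all were above, against 10.5%. The count without overlap depended on 2 pools, becoming 24 without PBS 3 (13.4% of all genes) and 25 without HAN 3 (19.5%). It also moved with the scaling, to 13 with quantile normalization (11.2% of all genes) and 16 with array medians (9.26%), and to 1 with normexp correction (6.83%). With normexp 22 of the 32 members were lower, and Irf7 (0.19), Ifi35 (0.04) and Oas2 (0.27) were higher in HAN, while the median of all genes was 0.15. The median was -0.34 without PBS 2, and -0.12 with slide as a fixed block, which reaches HAN from PBS only through the AAP pools.

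The role groups are set side by side as a description, since no test compared them, and the AAP median of all members depends on AAP 3 and PBS 2. For AAP the median difference was -0.53 for the restriction factors, -0.39 for the GTPases, -0.36 for the IFIT genes, -0.29 for the Isg15 pair, -0.21 for the synthetases, -0.16 for the sensors and -0.09 for the transcription factors. For HAN the medians in the same order were -0.71, -0.43, -0.48, -0.81, -0.80, -0.43 and -0.41, and Cxcl10 alone was at -2.58 in AAP and -1.68 in HAN. Members with an ISRE core in a promoter window had a median of -0.42 in AAP and -0.73 in HAN (19 measured), and the 6 with a window but no core -0.21 and -0.41, a difference that was not tested. Their median range over the 9 pools was 1.88 with the core and 1.06 without it. The windows of Cxcl10 and Stat2, the widest and the narrowest members, each hold 1 core.

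The third comparison set the peptides against each other without PBS. No gene passed at an adjusted p under 0.05 (0% of all genes, with 2040 genes at an unadjusted p under 0.05), and no member did. In mean, 25 members were higher and 7 lower in AAP than in HAN, with a median of 0.19 against 0.0027 for all genes. With normexp correction the median was -0.01 and 17 members were lower, while the median of all genes was -0.12. Relative to the median of all genes, that of the members thus stayed higher in AAP, by 0.11. No member was lower in AAP at an unadjusted p under 0.05 (4.2% of all genes), and none was higher (1037 of 23889 genes). No member had all AAP pools below all HAN pools (6.76% of all genes) or all above (7.58%). The lowest p belonged to Irf7, with a difference of 0.29 (95% interval -0.05 to 0.64) and a limma adjusted p of 0.582, followed by Irf9 at 0.32 (95% interval -0.11 to 0.75) and Oasl2 at 0.61. These intervals leave room for differences in both directions, so they do not show that the peptides act alike. Without AAP 3 the median was 0.52 with 1 member lower, and without AAP 1 or AAP 2 it was 0.01 or 0.05.

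The rest of the pathway was read from lists of ligands, receptors, relay proteins, sensing genes and further interferon-stimulated genes. None of these genes passed the adjusted test in any of the 3 comparisons. Of 58 further interferon-stimulated genes 50 were measured, and 40 were lower in AAP, with a median of -0.21, and 45 in HAN, with a median of -0.31. All HAN pools were below all PBS pools for 19 of the 50 (10.4% of all genes), and all AAP pools for 3 (5.4%). B2m, the light chain of class I antigen presentation, was at 2.14, 2.33 and 2.10 in PBS, 1.86, 1.70 and 0.87 in AAP and 1.39, 1.44 and 1.79 in HAN. All 6 peptide pools were below all PBS pools, and the differences were -0.71 (limma adjusted p = 0.687) and -0.65 (limma adjusted p = 0.482). Bst1, an ADP-ribosyl cyclase, differed by -0.56 in AAP and -0.42 in HAN, and Lgals9, a galectin, by -0.41 and -0.64. The mean of the 50 genes in PBS 2 was 0.08, against 0.47 for the 32 members, so the high pool among the saline retinas stood out less in the wider list.

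Upstream of these genes the median differences from PBS were smaller than those of the members, although not every pool or gene was closer to PBS. The ligand list had 11 of 19 genes measured, 7 of them lower in AAP and 4 in HAN, with medians of -0.02 and 0.08. Its mean in HAN 3 was 0.41, farther from PBS than that of the members (-0.29). Ifna11 was above PBS in all AAP pools, by 0.58 in mean (limma adjusted p = 0.708). The alpha interferon genes are near-identical copies whose probes may share signal. Ifnb1, Ifng, Ifna4 and Ifne had probes that were not kept for dimness. The receptor chain Ifnar1 was at 0.81, 0.87 and 0.83 in PBS, 0.91, 0.82 and 0.90 in AAP and 0.94, 0.91 and 0.95 in HAN, so its HAN pools were all above PBS by a small margin. Its partner Ifnar2 differed by -0.40 in AAP, where AAP 3 was at -1.80 and the other 2 pools were at -1.14 and -1.05, and by -0.06 in HAN. Over 6 receptor genes the median difference was -0.18 in AAP and -0.03 in HAN.

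Among 10 relay proteins and brakes, 8 were lower in AAP and 9 in HAN, both with a median of -0.07. Socs3, a brake on Janus kinase signalling, was at 0.68, -0.03 and -0.20 in PBS, -0.63, -1.12 and -2.63 in AAP and 0.13, -1.03 and -0.04 in HAN. Its AAP pools were all below PBS, by -1.61 in mean with a limma adjusted p of 0.684, and its HAN pools were not. Of 19 sensing genes 13 were lower in AAP and 12 in HAN, and the adaptor Ticam1 was below PBS in all 6 peptide pools, by -0.32 in AAP and -0.21 in HAN (limma adjusted p = 0.621 and 0.4).

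Markers of microglia and macrophages, cells in which many of these genes are active, were also lower in the peptide groups. Of 16 markers 15 were measured, all well above background on all 9 arrays, and 14 were lower in mean in AAP and in HAN, the exception in both being Siglech. All AAP pools were below all PBS pools for 11 of the 15 (5.4% of all genes), and all HAN pools for 9 (10.4%). Their mean relative to PBS was between -0.10 and 0.08 in the PBS pools, between -1.11 and -0.35 in AAP and between -0.998 and -0.21 in HAN. It was lowest in AAP 3, as for the interferon-stimulated genes, but AAP 1 and AAP 2 were at -0.35 and -0.64, where the interferon-stimulated genes were at -0.04 in both. PBS 2, the high pool for the interferon-stimulated genes at 0.47, was at -0.10 for the microglial markers. Aif1, a microglial calcium-binding protein, was at -0.41, -0.42 and -0.14 in PBS, -0.66, -0.91 and -1.56 in AAP and -0.67, -1.45 and -0.60 in HAN. All its peptide pools were below PBS. How far these cells account for the lower interferon-stimulated genes in AAP 3 and in HAN was not tested.

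**Figure D4:**
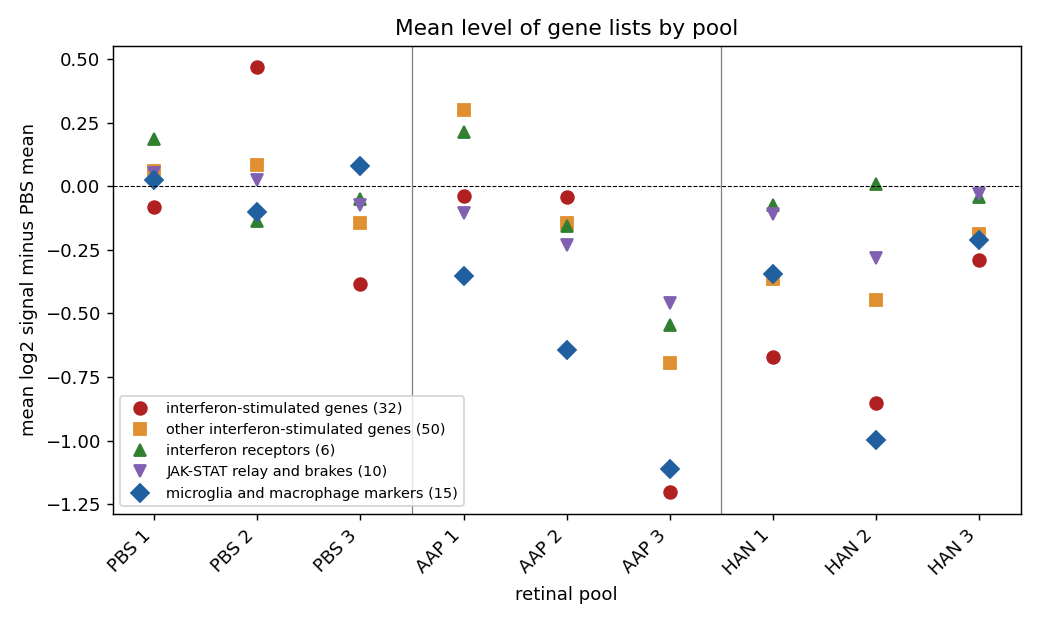
Points are mean log2 signals minus the PBS mean over the genes of 5 lists, by retinal pool, with the number of genes in each list in the legend. In PBS 2 the interferon-stimulated genes (0.47) stand above all other lists, in AAP 3 they (-1.20) and the microglia and macrophage markers (-1.11) are lowest, and in AAP 2 the microglial markers (-0.64) lie below the interferon-stimulated genes (-0.04).

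Few markers of other leukocytes were measured. Of 9 T and NK cell markers on the array 3 were measured, Cd3e, Cd4 and Nkg7, and their mean lay between -0.24 and 0.08 in the 9 pools. Of 7 neutrophil markers on the array 6 were measured, with pool means between -0.63 and 0.26. None passed the adjusted test, and 2 were lower in HAN at an unadjusted p under 0.05 (4.17% of all genes). S100a8 was at -5.46, -5.93 and -3.73 in PBS, -5.17, -7.05 and -5.35 in AAP and -7.81, -6.34 and -6.15 in HAN. It was well above background in 2 of the 3 AAP pools and in 2 of the 3 HAN pools, and was kept through its PBS pools alone. All HAN pools were below PBS (difference -1.73, limma adjusted p = 0.518). A gene kept in this way tends to be high in PBS, so this is a description only. S100a9, the partner of S100a8 in calprotectin, differed by -0.93 in HAN (limma adjusted p = 0.475), with HAN 3 just above PBS 2. The other neutrophil markers did not share this. Mpo was higher in HAN by 0.11, with all HAN pools above PBS (10.5% of all genes), and Csf3r by 0.19. Elane and Camp differed by -0.12 and -0.05. The list had 4 markers lower and 2 higher in HAN, with a median of -0.08. The muscle markers that were high in AAP 1 and AAP 3 went with an interferon-stimulated mean of -0.04 in the former and -1.20 in the latter. The lens markers were low in PBS 2, AAP 1 and AAP 3, where the interferon-stimulated mean was 0.47, -0.04 and -1.20. The part of these tissues in the results was not tested.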

How the data were processed

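Retinal RNA of 9 pools was hybridised with Cy3 on one-colour Agilent arrays. Per the file headers, the deposited intensity of each spot is Feature Extraction's processed signal on a linear scale, background-subtracted within the array with no scaling between arrays. The value table the authors deposited matched the probe means of that signal for at least 99.73% of probes on each array (relative tolerance 0.0001). No source used here states which test the authors ran.

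Control spots and 103 to 160 outlier spots an array were left out. No spots were saturated. Signals were converted to log2, the array's 75th percentile was subtracted and repeat spots were averaged to 39429 probes. Probes were named by RefSeq accession through a table of GRCm38.p6 (26055 probes, 19751 symbols). Probes had to be well above background on every array of some group, and the brightest such probe stood for its gene. The members had 41 probes, 38 of them kept. In 6 members with several kept probes these had the same direction in AAP and HAN against PBS. Groups were compared in 1 limma model over 9 arrays (limma 3.58.1, R 4.3.3) with Benjamini-Hochberg adjustment over all genes kept and a threshold of 0.05, tested on simulated data. The number of arrays limits the precision.

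Values in all pools are given for members among the 8 lowest p of a comparison or the 8 widest ranges. Up to 4 genes of a pathway list by lowest p were candidates for naming. Ifnar1, Aif1 and the neutrophil markers were named after their values were seen. Some genes of the lists are not reported here. The members and lists were chosen with earlier results of these data known. Alternatives covered background correction (normexp, offset 50, on the median signal in place of the planned mean signal), scaling, filters, probe choice, slide and replicate blocks, array weights and leaving out pools.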

Additional observations from a re-analysis of the deposited data

How the results depend on the processing

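Over 24 alternatives no member passed the adjusted threshold in any comparison, and the lowest limma adjusted p was 0.121 (Bst2 in HAN against PBS, array weights). Of 837 alternative values 786 kept their direction and size class, 40 moved and 11 reversed. The count of all genes called in AAP against PBS, 1 in the reported fit, was 0 with normexp, quantile normalization, array medians, no filter, the replicate block, 2 groups alone and without AAP 3 and PBS 2, 48 with slide as a fixed block and 79 within the first slide, and 0 to 12 when 1 pool was left out. For HAN against PBS (1) it was 0 with normexp, the replicate block and without AAP 3 and PBS 2, 2 with slide as a fixed block, 3 with array weights and 1 to 3 when 1 pool was left out; for AAP against HAN (0) it was 0 to 13. Members lower without overlap, with the share of all genes, numbered 1 (normexp, 6.83%), 13 (quantile, 11.2%), 16 (array medians, 9.26%) and 6 to 25 with 1 pool left out (10.4% to 21.0%) in HAN against PBS (6), 2 without AAP 3 and PBS 2 (14%) and 1 to 5 with 1 pool left out (5.4% to 14.5%) in AAP against PBS (1), and 1 within the second slide (15.0%) in AAP against HAN (0). The median of members in AAP against PBS was 0.21 without AAP 3 and PBS 2. With normexp the median in HAN 3 was 0.24 and 17 members were highest in PBS 2, and all genes shifted by 0.15 in HAN against PBS and -0.12 in AAP against HAN. Reversed members were, with normexp, Irf7 (0.19), Ifi35 (0.040) and Oas2 (0.27) in HAN against PBS and Irf7 (-0.21), Zbp1 (-0.17) and Oas2 (-0.25) in AAP against HAN; with slide as a fixed block, Oas2 in HAN against PBS (0.15) and Ifi35 in AAP against PBS (0.026, also within the first slide); and without AAP 3 and PBS 2, Irgm2 (0.037) and Igtp (0.11) in AAP against PBS. The cause was not tested. Deviations of pools with the same replicate number correlated between -0.283 and 0.401. Pools with different numbers were not set beside them, so whether the numbers pair the pools was not tested. The replicate block left the medians at -0.34, -0.48 and 0.19. Dim signal limits Cxcl10, Trim30a and Ifi44 in AAP 3.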
